A study of Rattus norvegicus with 12 samples.

Results

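The genes described here are 9 targets of the transcription factor NRF2 and antioxidant enzymes: Hmox1, Nqo1, Gclc, Gclm, Txnrd1, Srxn1, Prdx1, Gsr and Osgin1. They were taken as every array probe whose RefSeq transcript belongs to one of these genes, which gave 10 probes, 1 for each gene and a second for Txnrd1. Of the 9 genes, 8 were bright enough to be tested among 20359 genes and unnamed transcripts, and Gclm was not. The samples were primary hepatocytes of male Sprague Dawley rats, thawed from frozen stocks, kept in culture for 24 h and then exposed for 24 h. The 4 groups were the solvent DMSO, triclosan at 30 µM, diclosan at 30 µM and 1-chloro-3-(4-chlorophenoxy) benzene at 30 µM, called CCPB here, with 3 one-colour Agilent arrays each. Triclosan is an antibacterial hydroxylated chlorinated diphenyl ether, diclosan lacks a chlorine that triclosan carries, and CCPB is a chlorinated diphenyl ether without the hydroxyl group. The series was made to compare triclosan with chemicals of similar structure, as a case of reading toxicity across from one chemical to another. Its replicates are described as independent experiments, which does not say whether the cells came from different animals, so the p-values measure the spread between these cultures.

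NRF2 is held in the cytoplasm and marked for degradation by KEAP1, a sensor whose cysteines react with electrophiles and oxidants. Once released, NRF2 binds antioxidant response elements together with small MAF proteins and raises genes for glutathione synthesis, quinone reduction, the thioredoxin system and haem breakdown. In the liver these genes protect hepatocytes from reactive drug metabolites. Hmox1 also answers to haem itself, through loss of the repressor BACH1, and to heat shock and inflammatory signals.

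The promoter windows below are shown because they carry the letters of an antioxidant response element, the sequence through which NRF2 acts. RefSeq's table on build GRCr8 gave windows of 300 bases, from 250 before to 50 after an annotated start, for 7 of the 9 genes, with a pair of starts for Txnrd1 and thus 8 windows. Hmox1 and Gsr had no entry. The core TGACNNNGC, searched on both strands, was found in 3 of the 8 windows, against 12.1% of all 33469 windows of that length. The AP-1 element TGANTCA, which the core can overlap as it does in Prdx1, was found in 2 of the 8 and in 7.33% of all windows. Capitals mark the core, which lies on the opposite strand in each window below and therefore reads as its reverse complement.
Gclm, chr2:213031885-213032184, plus strand: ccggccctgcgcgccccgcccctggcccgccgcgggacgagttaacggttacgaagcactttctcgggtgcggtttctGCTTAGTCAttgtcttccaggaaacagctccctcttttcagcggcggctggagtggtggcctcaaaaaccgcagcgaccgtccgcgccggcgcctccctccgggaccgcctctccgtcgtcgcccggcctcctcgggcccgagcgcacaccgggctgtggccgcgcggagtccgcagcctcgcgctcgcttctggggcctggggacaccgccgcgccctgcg
Txnrd1, chr7:22755855-22756154, minus strand: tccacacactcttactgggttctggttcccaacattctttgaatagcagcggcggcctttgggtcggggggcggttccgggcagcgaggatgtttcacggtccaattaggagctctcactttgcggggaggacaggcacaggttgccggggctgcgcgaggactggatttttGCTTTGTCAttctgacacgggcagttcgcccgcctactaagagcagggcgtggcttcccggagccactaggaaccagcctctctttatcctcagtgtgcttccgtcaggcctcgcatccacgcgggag
Prdx1, chr5:135383656-135383955, plus strand: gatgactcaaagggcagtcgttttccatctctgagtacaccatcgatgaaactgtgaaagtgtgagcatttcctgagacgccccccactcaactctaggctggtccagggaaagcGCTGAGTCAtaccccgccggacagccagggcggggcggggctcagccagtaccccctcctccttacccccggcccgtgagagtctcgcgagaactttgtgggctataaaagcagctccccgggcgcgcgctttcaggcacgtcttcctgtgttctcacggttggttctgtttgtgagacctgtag
Read on its own strand the element is TGACTAAGC in Gclm, TGACAAAGC in Txnrd1 and TGACTCAGC in Prdx1. The matches start at -172, -78 and -135 bases from the annotated start. A match is a description of the letters and says nothing of binding in these cells, and neither Txnrd1, read by its brighter probe, nor Prdx1 was called in any of the 6 comparisons of groups on the level itself.

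Levels are log2 of the background-corrected signal relative to the 75th percentile of the same array, so a level of 0 equals that percentile and a difference of 1 is a doubling. They were compared between arrays for 1 gene at a time. A gene is called changed where limma's adjusted p, over all 20359 features, was under 0.05. Between 51.6% and 55.5% of the probes lay above background on an array and no spot was saturated. Of 2 slides, the first held all DMSO and triclosan arrays and diclosan replicates 1 and 2, and the second held diclosan replicate 3 and all CCPB arrays. CCPB and DMSO therefore shared no slide, and every comparison of CCPB with the other groups that accounts for the slide rests on diclosan replicate 3. All 10 hepatocyte markers were above background on every array, albumin among them at 8.42 ± 0.04 (SD, n = 3) in DMSO. The macrophage markers Adgre1 and Marco, the endothelial markers Lyve1 and Pecam1, the stellate cell markers Lrat and Dcn and the cholangiocyte markers Krt19, Cftr and Spp1 were above background on no array. Other markers of these cells were above background on all 3 DMSO arrays. They were 5 of 12 for macrophages, 3 of 7 for endothelial cells, 6 of 9 for stellate cells and fibroblasts and 3 of 6 for cholangiocytes. The DMSO means of Cd14 (2.49), Epcam (1.28) and Col1a2 (0.72) lay above the 75th percentile.

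**Figure D1:**
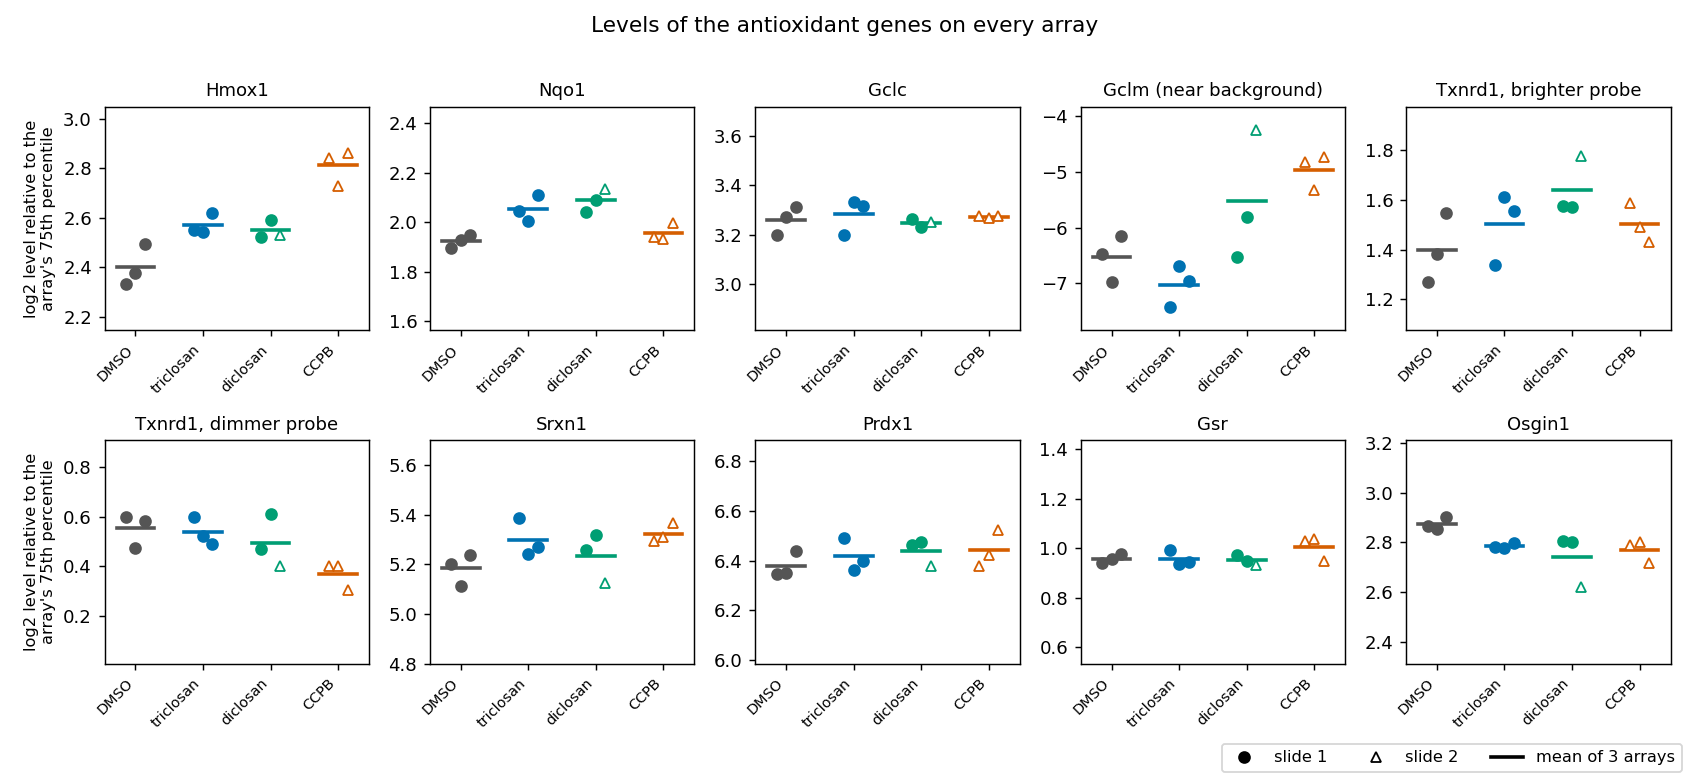
Level of each antioxidant gene on every array, as log2 relative to that array's 75th percentile. Each panel is 1 probe, each point 1 array (filled circles on slide 1, open triangles on slide 2), each bar the mean of 3 arrays, and all panels but that of Gclm span the same height. Hmox1 is highest on the 3 CCPB arrays (2.73 to 2.86), whereas Nqo1 is highest with triclosan and diclosan.

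Hmox1 encodes haem oxygenase 1, which breaks haem down to biliverdin, iron and carbon monoxide. Its levels in DMSO were 2.33, 2.38 and 2.49, and with CCPB they were 2.84, 2.73 and 2.86. Every CCPB array lay above every array of the other 3 groups. The rise over DMSO was 0.41 on the log2 scale, or 1.33-fold (95% interval 0.30 to 0.53, limma adjusted p = 0.000543). Hmox1 was the only 1 of the 8 tested antioxidant genes called with CCPB, a comparison in which 28.3% of all features were called (5757 of 20359). With the slide as a block the rise was 0.44 (interval 0.22 to 0.65, limma adjusted p = 0.0451), and 3.46% of all features were called in that fit. Hmox1 on diclosan replicate 3, on the slide of the CCPB arrays, differed by -0.03 from diclosan replicates 1 and 2, where the median absolute difference over all features was 0.11.

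Triclosan gave Hmox1 levels of 2.55, 2.54 and 2.62, and diclosan gave 2.52, 2.59 and 2.53. Both sets of arrays lay above all 3 DMSO arrays and below all 3 CCPB arrays. The difference from DMSO was 0.17 with triclosan (1.13-fold, interval 0.06 to 0.29, limma adjusted p = 0.252) and 0.15 with diclosan (1.11-fold, interval 0.03 to 0.26, adjusted p = 0.376), so neither was called. None of the 8 tested genes was called in either comparison, by limma, where 0.0639% (13) and 0.00982% (2) of all features were, and 0.226% and 0.0147% with the slide as a block. Unadjusted p was under 0.05 for Hmox1 (0.0079) and Nqo1 (0.0083) with triclosan, among 2359 features. With diclosan it was under 0.05 for Nqo1 (0.0019), Hmox1 (0.016), Osgin1 (0.026) and Txnrd1 (0.028), among 2152 features.

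Some markers of other liver cells were also called higher with CCPB, and their part in the Hmox1 rise was not tested. They were Cd14 among 5 tested macrophage markers, Epcam and Sox9 among 3 cholangiocyte markers, Fcgr2b among 3 endothelial markers and Acta2 among 6 stellate cell and fibroblast markers. In the same comparison 28.3% of all features were called, so these counts say nothing particular about such markers. With the slide as a block Cd14 alone of these was called, in a fit that called 3.46% of all features. Of 12 macrophage markers 5 were above background on all arrays in every group, and the summed linear level of all 12 was 6.52 to 6.71 times the 75th percentile in DMSO and 7.99 to 8.14 times with CCPB. It was 6.57 to 6.86 with triclosan and 6.53 to 7.03 with diclosan. Most of that sum was Cd14, a receptor for bacterial lipopolysaccharide, whose level was 2.49 ± 0.06 in DMSO and 2.79 ± 0.02 with CCPB (SD, n = 3, difference 0.30, limma adjusted p = 0.00126, and 0.0224 with the slide block). The macrophage markers Clec4f, C1qb and Tyrobp had their highest mean with diclosan, at -3.24, -1.38 and -2.92, and not with CCPB, at -3.63, -1.65 and -3.24. Their DMSO means were lower than both, at -3.90, -1.97 and -3.43. Cd68, the remaining tested marker, was highest with CCPB, at -1.03 against -1.08 with diclosan and -1.22 in DMSO. All 5 tested macrophage markers thus had a higher mean with CCPB than in DMSO, by 0.19 to 0.32, and Cd14 alone was called. The summed level of 6 cholangiocyte markers was 2.80 to 2.99 in DMSO and 3.54 to 3.61 with CCPB. Most of that sum was Epcam, at 1.28 ± 0.05 in DMSO and 1.61 ± 0.02 with CCPB (SD, n = 3). The sum of 7 endothelial markers was 0.263 to 0.309 in DMSO and 0.322 to 0.402 with CCPB. That of 9 stellate cell and fibroblast markers was 1.98 to 2.68 and 2.05 to 2.15. Hepatocyte markers summed to between 2279 and 2375 in DMSO and between 2354 and 2408 with CCPB. Of the 10 hepatocyte markers 4 were called higher with CCPB and none lower, where 28.3% of all features were called, and 2 with the slide as a block. In RNA from whole cultures, a change in the number of cells of a type and a change in RNA per cell cannot be told apart.

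Among the compounds, Hmox1 was lower with triclosan than with CCPB by 0.24 on the log2 scale (difference -0.24, interval -0.35 to -0.12, limma adjusted p = 0.0127). With diclosan it was lower than with CCPB by 0.26 (difference -0.26, interval -0.38 to -0.15, adjusted p = 0.00909). It was the only 1 of the 8 genes called in each comparison, against 20.5% and 14.4% of all features. Neither call held with the slide as a block, at -0.26 (limma adjusted p = 0.228) and -0.28 (0.0719), fits that called 1.41% and 4.95% of all features. Triclosan and diclosan, which differ by a chlorine and share the hydroxyl group, gave Hmox1 levels that differed by 0.02 (interval -0.09 to 0.14, adjusted p = 0.963), so differences beyond 0.14 in either direction lay outside the interval. In that comparison limma called 0 of the 8 genes and 0% of all features, or 0.00491% with the slide as a block, and unadjusted p was under 0.05 for none of the 8 and for 1391 of all features.

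Nqo1 encodes a quinone reductase that uses NADPH or NADH and is among the most used readouts of NRF2. Its DMSO levels were 1.90, 1.93 and 1.95. Triclosan gave 2.05, 2.004 and 2.11, diclosan gave 2.04, 2.09 and 2.13, and CCPB gave 1.94, 1.93 and 1.998. The triclosan and diclosan arrays all lay above the DMSO and the CCPB arrays, and the CCPB arrays overlapped with DMSO. The difference from DMSO was 0.13 with triclosan (interval 0.04 to 0.22, limma adjusted p = 0.256), 0.16 with diclosan (0.08 to 0.25, adjusted p = 0.238) and 0.03 with CCPB (-0.05 to 0.12, adjusted p = 0.547). Nqo1 was 0.13 higher with diclosan than with CCPB (interval 0.04 to 0.22), just short of the threshold (limma adjusted p = 0.0524), and 0.10 higher with triclosan than with CCPB (0.01 to 0.18, adjusted p = 0.110). By means, the order of the 3 compounds was thus the reverse of that for Hmox1, with triclosan and diclosan not apart beyond their spread for either gene.

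**Figure D2:**
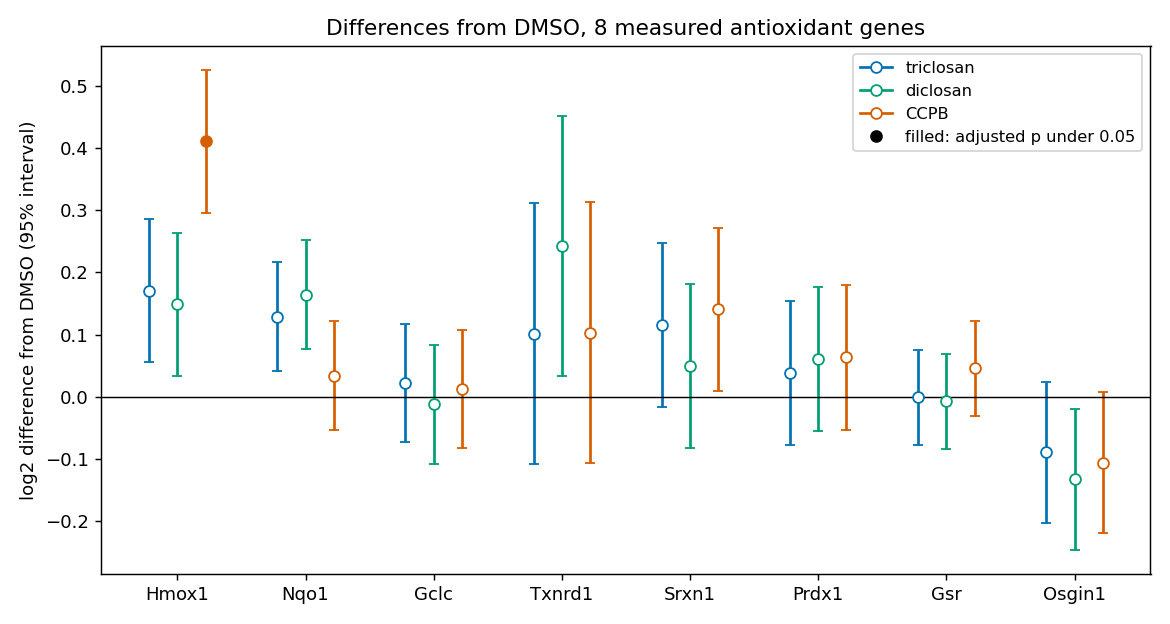
Difference from DMSO for the 8 tested antioxidant genes with each compound, on the log2 scale, with 95% intervals from limma over 12 arrays. Filled points passed an adjusted p of 0.05. Hmox1 with CCPB (0.41) is the single filled point, and the intervals of Gclc, Prdx1 and Gsr hold 0 with all 3 compounds.

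Glutathione is made by glutamate-cysteine ligase, whose catalytic subunit is Gclc and whose regulatory subunit is Gclm, and its oxidised form is reduced again by glutathione reductase, Gsr. Gclc lay between 3.20 and 3.33 on all 12 arrays. Its mean was 3.26 ± 0.06 in DMSO, 3.28 ± 0.07 with triclosan, 3.25 ± 0.02 with diclosan and 3.27 ± 0.01 with CCPB (SD, n = 3 each). Its differences from DMSO were 0.02, -0.01 and 0.01, and their intervals lay within -0.11 and 0.12. Gsr was as flat, between 0.93 and 1.04, with a CCPB mean of 1.00 ± 0.05 against 0.96 ± 0.02 in DMSO (difference 0.05, interval -0.03 to 0.12, limma adjusted p = 0.336). Gsr with triclosan and with diclosan differed from DMSO by less than 0.01.

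Gclm gave no usable change, because its probe was above background on only 2 of 12 arrays, diclosan replicate 3 and CCPB replicate 3. Its levels were -6.47, -6.97 and -6.15 in DMSO and -7.43, -6.69 and -6.95 with triclosan. With diclosan they were -6.52, -5.81 and -4.24, and with CCPB -4.82, -5.33 and -4.74. The 4 arrays of the second slide were the 4 highest, the diclosan array on it included. Slide and compound cannot be told apart for the CCPB arrays, and no fold is given.

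Txnrd1, cytosolic thioredoxin reductase, returns electrons from NADPH to thioredoxin, and its transcripts start at more than 1 promoter. The brighter of its probes gave 1.27, 1.38 and 1.55 in DMSO, 1.34, 1.61 and 1.56 with triclosan, 1.58, 1.57 and 1.78 with diclosan, and 1.59, 1.49 and 1.43 with CCPB. The diclosan arrays lay above all DMSO arrays, and the other groups overlapped with DMSO. Diclosan had the widest difference (0.24, interval 0.03 to 0.45, limma adjusted p = 0.409), with 0.10 for both triclosan (-0.11 to 0.31) and CCPB (-0.11 to 0.31). On this probe diclosan replicate 3 was 0.20 above the other diclosan arrays, and under the slide block the CCPB difference was -0.10 (interval -0.46 to 0.25).

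The second Txnrd1 probe, designed on another RefSeq transcript, went the other way with CCPB. It gave 0.60, 0.48 and 0.58 in DMSO and 0.40, 0.40 and 0.30 with CCPB. The CCPB arrays lay below all DMSO arrays, with a difference of -0.19 (interval -0.32 to -0.05), called when each probe was fitted on its own (limma adjusted p = 0.0476, a fit chosen after the data were seen that called 27.2% of 24254 probes). The slide block moved it to -0.04 (adjusted p = 0.871). Triclosan arrays on this probe were at 0.60, 0.52 and 0.49, and diclosan arrays at 0.47, 0.61 and 0.40, the lowest being diclosan replicate 3. The probes thus differed in sign for CCPB, and a single direction for Txnrd1 is not given.

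Srxn1, sulfiredoxin, repairs overoxidised peroxiredoxins, and Prdx1 is an abundant peroxiredoxin that removes hydrogen peroxide. Srxn1 was at 5.20, 5.11 and 5.24 in DMSO and at 5.29, 5.31 and 5.37 with CCPB, so the CCPB arrays lay just above all DMSO arrays. The difference was 0.14 (interval 0.01 to 0.27, limma adjusted p = 0.101), and 0.30 under the slide block (0.10 to 0.50, adjusted p = 0.111). Triclosan arrays (5.39, 5.24 and 5.27) also lay above DMSO, by 0.12 (interval -0.02 to 0.25, adjusted p = 0.498), and diclosan arrays (5.26, 5.32 and 5.13) overlapped with it. Srxn1 was thus the member nearest to Hmox1 in its CCPB difference, without passing the test. Prdx1 lay between 6.35 and 6.52 on all arrays, with differences from DMSO of 0.04, 0.06 and 0.06 for triclosan, diclosan and CCPB and intervals that held 0 in all 3.

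Osgin1, an oxidative stress induced growth inhibitor and NRF2 target, had a mean below DMSO with all 3 compounds, as did the dimmer Txnrd1 probe. Its levels were 2.87, 2.86 and 2.90 in DMSO. Triclosan gave 2.78, 2.78 and 2.80, diclosan gave 2.81, 2.80 and 2.62, and CCPB gave 2.79, 2.80 and 2.72. All 9 treated arrays lay below all 3 DMSO arrays. The differences were -0.09 (interval -0.20 to 0.02), -0.13 (-0.25 to -0.02) and -0.11 (-0.22 to 0.01), and none passed (limma adjusted p = 0.545, 0.40 and 0.143). These 3 comparisons share their DMSO arrays. Diclosan replicate 3 was 0.19 below the other diclosan arrays, and with the slide as a block the CCPB difference turned to 0.08 (interval -0.05 to 0.21, adjusted p = 0.519).

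**Figure D3:**
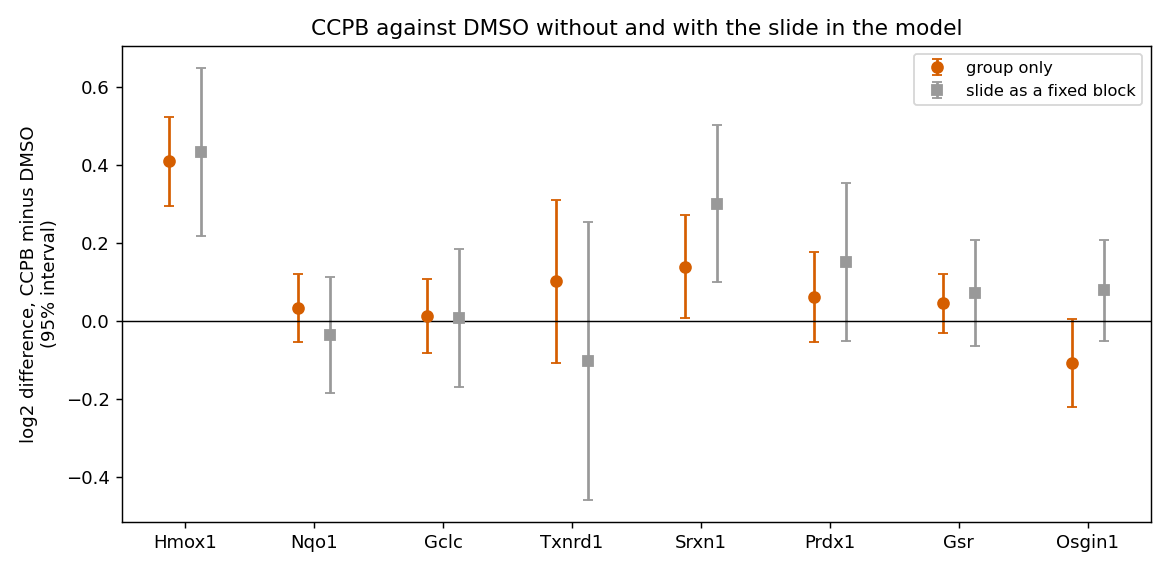
Difference of CCPB from DMSO for each tested antioxidant gene, on the log2 scale with 95% intervals, from the model of group alone (circles) and with the slide as a fixed block (squares). Hmox1 stays above 0 in both (0.41 and 0.44), the point of Osgin1 moves from -0.11 to 0.08 and that of Txnrd1 from 0.10 to -0.10, and the intervals widen.

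Whether the other members moved apart from Hmox1 was tested on the level of each gene minus that of Hmox1 on the same array, a comparison added after the data were seen. Because the rise of Hmox1 is subtracted from every gene, a gene that does not move has a negative difference here. Txnrd1 was read by its brighter probe alone. With CCPB against DMSO all 7 other tested members differed from Hmox1 in their change, in a fit that called 78.2% of 20358 features, so the count says nothing particular about the members. The difference was widest for Osgin1 (-0.52, interval -0.68 to -0.36, limma adjusted p = 0.000108), followed by Gclc (-0.40), Nqo1 (-0.38), Gsr (-0.36), Prdx1 (-0.35), Txnrd1 (-0.31) and Srxn1 (-0.27, interval -0.43 to -0.11, adjusted p = 0.00446). With the slide as a block 5 of the 7 passed, Txnrd1 at -0.54 (limma adjusted p = 0.0166), Nqo1 at -0.47 (0.0091), Gclc at -0.43, Gsr at -0.36 and Osgin1 at -0.36, and 62.2% of all features passed as well. Srxn1 (-0.13, adjusted p = 0.340) and Prdx1 (-0.28, 0.0588) did not. For triclosan and diclosan against DMSO no member passed, the lowest limma adjusted p being 0.0588 for Osgin1 with triclosan. The share of all features that passed there was not counted, so this does not show that the members moved with Hmox1.

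Between compounds the same subtraction compares the change of Nqo1 with that of Hmox1. Nqo1 minus Hmox1 was 0.39 higher with diclosan than with CCPB (interval 0.27 to 0.52, limma adjusted p = 0.000588, and 0.00727 with the slide as a block) and 0.33 higher with triclosan than with CCPB (0.21 to 0.46, adjusted p = 0.00139, and 0.0493 with the block). Relative to Hmox1 and without the slide block, 60.4% and 55.5% of all features were called in these comparisons. On the brighter Txnrd1 probe, Txnrd1 minus Hmox1 was 0.40 higher with diclosan than with CCPB (limma adjusted p = 0.00439). The dimmer probe was not fitted relative to Hmox1. Passing did not set these genes apart. Without the slide block every other tested member also passed against CCPB, except Srxn1 with diclosan (0.17, limma adjusted p = 0.0549). With the block Nqo1 alone passed for triclosan against CCPB, and Nqo1, Txnrd1 and Gclc passed for diclosan against CCPB. The share of all features that passed in those block fits was not counted, so these passes say nothing particular about the members.

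As a measure of likeness over the 12 arrays, the levels of each named gene were set against those of Hmox1, each gene centred on its own mean, as the root mean square difference. Its median over 10685 named genes was 0.18. The nearest genes were Stx17 (0.043), Spryd7 (0.043), Azin1 (0.044), Cmbl (0.045) and Snx10 (0.049). A gene that is flat on all arrays would score 0.16, the root mean square of Hmox1's own centred levels. Srxn1 was the nearest member at 0.12, in place 1015, and Osgin1 the farthest at 0.19, in place 6181, so the members lay on both sides of the score of a flat gene.

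The wider redox network was read from lists that hold 98 other genes, 93 of them tested. With CCPB 31 were higher and 12 lower than DMSO, together 46.2% of those tested against 28.3% of all features, with a median difference of 0.07 against 0.01. Under the slide block 4 of the 93 were higher and 0 lower by limma: Alas1, Aox1, Slc40a1 and Gsta1. That fit called 3.46% of all features, so this count was near the share of all features. List medians with CCPB ran from -0.06 for NADPH supply, 0.0035 for peroxide removal and 0.015 for glutathione genes to 0.13 for haem and iron genes and 0.17 for detoxification genes. With the slide as a block they were 0.03 for NADPH supply, 0.02 for peroxide removal, 0.05 for glutathione, 0.08 for haem and iron and 0.16 for detoxification genes. With triclosan and with diclosan limma called 0 of the 93. Under the slide block limma called 2 higher with triclosan, Gsta1 (0.27, adjusted p = 0.043) and Slc40a1 (0.24, 0.0488), where 0.226% of all features were called.

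Of the genes of haem and iron handling, 5 of 10 were called higher with CCPB and none lower, where 28.3% of all features were called. With the slide as a block 2 of the 10 were called, against 3.46% of all features. Alas1, the first and rate-limiting enzyme of haem synthesis, rose from 5.63 ± 0.04 to 5.99 ± 0.05 (difference 0.35, limma adjusted p = 0.000369, slide block 0.45 and 0.00836), and was at 5.63 ± 0.01 with triclosan and 5.56 ± 0.06 with diclosan (SD, n = 3). Alas1 was also lower with triclosan (-0.35) and with diclosan (-0.42) than with CCPB, and both calls held with the slide block (adjusted p = 0.024 and 0.00273). Slc40a1, the iron exporter ferroportin, rose by 0.32 (adjusted p = 0.000306, slide block 0.35 and 0.0263). It stood at 5.09 ± 0.03 with triclosan and 5.09 ± 0.02 with diclosan against 4.85 ± 0.03 in DMSO, differences of 0.24 each that were not called (adjusted p = 0.0618 and 0.0734). Blvrb, biliverdin reductase B, rose by 0.18 (limma adjusted p = 0.00636, and 0.406 with the slide block).

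The largest of the lists, detoxification genes linked to NRF2, had 13 of 24 members higher and 1 lower with CCPB, with a median difference of 0.17. In that comparison 28.3% of all features were called. With the slide as a block 2 of the 24 were higher and 0 lower, where 3.46% of all features were called. Gsta1, a glutathione transferase of the alpha class, rose from 7.06 ± 0.03 to 7.60 ± 0.03 (difference 0.54, limma adjusted p = 0.000182, slide block 0.34 and 0.0306). Its relative Gsta2 rose by 0.41 (adjusted p = 0.00126, and 0.196 with the slide block). The genes of this family are near-identical in sequence, so their probes may share signal. Aox1, aldehyde oxidase, rose by 0.25 (adjusted p = 0.00162, slide block 0.35 and 0.0179). Gsta1 was at 7.33 ± 0.02 with triclosan and 7.30 ± 0.13 with diclosan, above DMSO by 0.27 and 0.24 (adjusted p = 0.120 and 0.228).

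Genes around glutathione moved in both directions with CCPB, 2 higher and 3 lower of 9, where 28.3% of all features were called. With the slide as a block 0 of the 9 were called against DMSO. Ggt1, gamma-glutamyltransferase, which splits glutathione outside the cell, rose by 0.43 (limma adjusted p = 0.000395, and 0.0672 with the slide block), and the glutaredoxin Glrx rose by 0.17 (0.0058, and 0.292 with the block). Chac1, which degrades glutathione inside the cell, fell by 0.32 (0.00375, and 0.346 with the block). Slc7a11, the cystine importer, differed from DMSO by -0.13 with CCPB and was not called (adjusted p = 0.0957). It was 0.25 higher with triclosan and 0.19 higher with diclosan than with CCPB (adjusted p = 0.0111 and 0.0431, and 0.265 and 0.225 with the slide block).

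Of 11 other thioredoxin system genes, 4 were higher and 2 lower with CCPB, where 28.3% of all features were called. With the slide as a block limma called 0 of the 11, against 3.46% of all features. Msra, a methionine sulfoxide reductase, rose by 0.23 and Prdx5, a mitochondrial peroxiredoxin, by 0.17 (limma adjusted p = 0.00191 and 0.00524). Sesn2, a stress-induced sestrin, fell by 0.49 (0.00417), and Txn1, thioredoxin itself, differed by -0.01 (interval -0.09 to 0.07). Among 10 genes that remove peroxide and superoxide, Gpx3 rose by 0.32 (0.00169) and mitochondrial Sod2 by 0.20 (0.0316), Gpx1 fell by 0.10 (0.0467), and catalase, Cat, differed by -0.10 without passing (0.328). With the slide as a block none of these 4 passed against DMSO, and the catalase difference turned to 0.22 (limma adjusted p = 0.0783).

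NADPH is an electron donor of Nqo1, Gsr and Txnrd1, and 9 genes were listed for its supply in the cell. With CCPB 2 of them were higher and 3 lower, where 28.3% of all features were called, and 0 with the slide as a block. Idh2, mitochondrial isocitrate dehydrogenase, fell by 0.46 (limma adjusted p = 0.000312, slide block -0.31 and 0.0614). Mthfd2 of the mitochondrial folate cycle fell by 0.29 (limma adjusted p = 0.00191, and 0.193 with the slide block). Whether such changes alter the NADPH available to Nqo1, Gsr or Txnrd1 was not tested. Of 12 tested NRF2 regulators, 1 was higher and 2 lower with CCPB, a share no larger than the 28.3% of all features, and 0 were called by limma with the slide block. Mafg, a small MAF partner, rose by 0.19, the repressor Bach2 fell by 0.29 and the kinase Gsk3b fell by 0.16 (limma adjusted p = 0.0321, 0.00227 and 0.0181, none called with the slide block). Nfe2l2, which encodes NRF2, differed by 0.15 with triclosan (adjusted p = 0.204), 0.08 with diclosan (0.531) and 0.08 with CCPB (0.149). Keap1 and Bach1 differed from DMSO with CCPB by 0.07 and -0.09 (adjusted p = 0.448 and 0.533).

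Heat shock genes, which share inducers with Hmox1, were called in 0 of 6 cases with CCPB by limma, where 28.3% of all features were called. Unadjusted p was under 0.05 for 1 of them, Hsph1. Hsph1 differed by 0.13 (limma adjusted p = 0.0982), Hspa1a by 0.11 and Hsp90aa1 by 0.09. Metallothioneins, small proteins that bind metals, were both higher with CCPB, Mt2A by 0.16 and Mt1 by 0.10 (limma adjusted p = 0.00909 and 0.0421, and 0.137 and 0.568 with the slide block). With diclosan Mt2A was 0.13 and Mt1 0.11 above DMSO, without passing (adjusted p = 0.289 and 0.301).

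**Figure D4:**
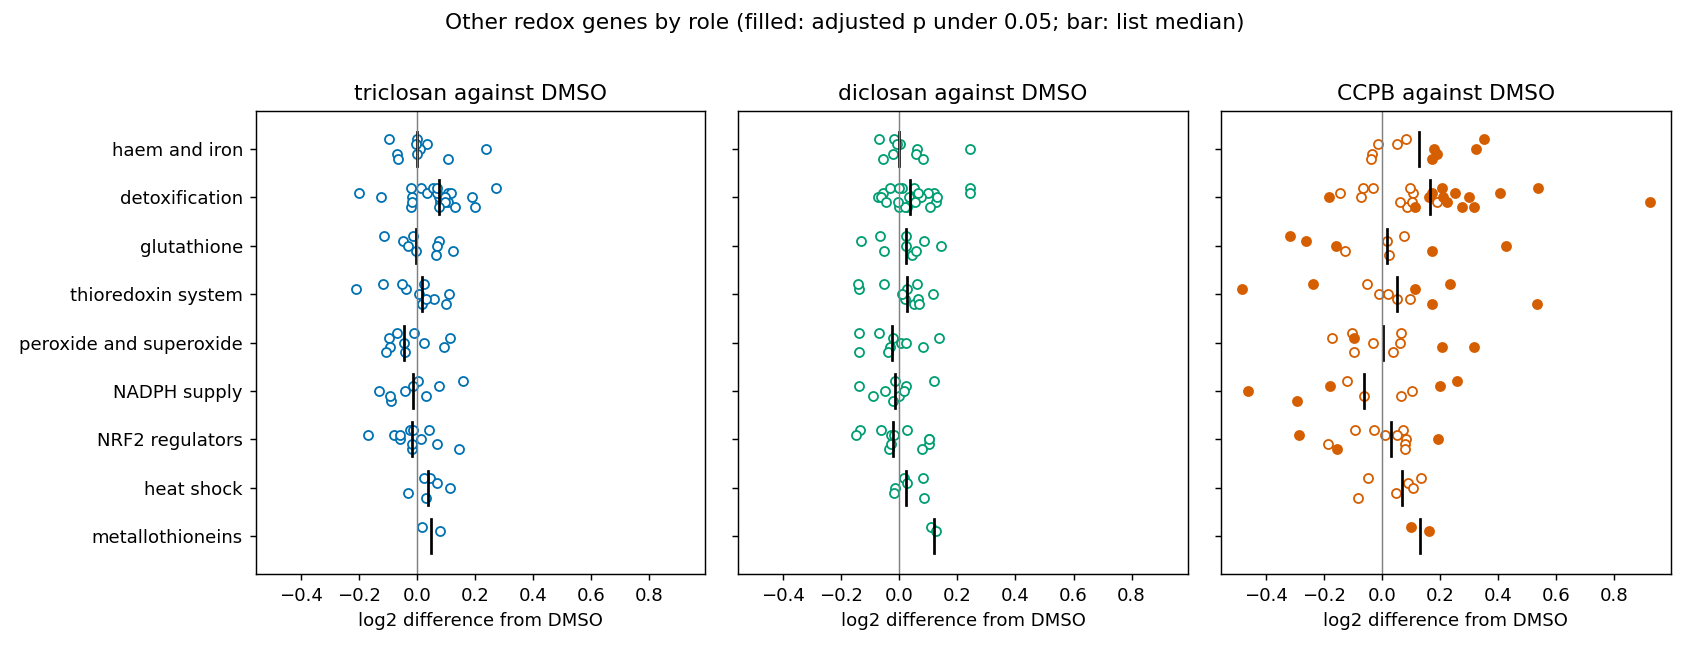
Difference from DMSO of each tested gene in the lists of the redox network, on the log2 scale, with triclosan, diclosan and CCPB in 3 panels. Each point is 1 gene, filled where the limma adjusted p was under 0.05, and each bar is the list's median. Only the CCPB panel has filled points, with 13 of 24 detoxification genes and 5 of 10 haem and iron genes to the right of 0. In that comparison 28.3% of all features were called.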

How the data were processed

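Total RNA of 12 hepatocyte cultures was labelled with Cy3 and read on one-colour Agilent rat arrays, per the labels' protocols. The deposited scanner files, made with Feature Extraction 10.7.1.1 per the file headers, give an intensity per spot that the scanner software had already background-corrected. The authors' deposited table holds a linear signal whose 75th percentile was 1.00 and whose median was 0.048 to 0.055 on every array, so it is scaled per array and not centred per gene. It served as an alternative.

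From the intensity, log2 minus each array's 75th percentile was taken over 58717 spots that are not controls, without non-uniform spots (1 to 8 per array), and spots of a probe were averaged. A probe was kept where it was above background on all 3 arrays of a group (24254 of 45598), and the brightest probe stood for a gene. Names came from RefSeq transcripts, and 21229 of the probes carried a symbol. Groups were compared with limma 3.58.1 in R 4.3.3 over all 12 arrays in 6 comparisons, two-sided, with Benjamini-Hochberg adjustment over 20359 features. The script was tested on simulated data with known changes. The number of arrays limits the precision, and the median half-width of a 95% interval was 0.14.

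Slide numbers came from the file headers. No pairing by replicate number was seen, as correlations of deviations between arrays of the same number ran from -0.17 to 0.12. The labels do not say whether a number marks a shared experiment. Replicates of a group differed by a median of 0.066 to 0.114 on the log2 scale and none were identical. Members and lists were chosen with earlier results of these data known. Genes named from the other lists were the 3 with the smallest p between CCPB and DMSO in each, plus Nfe2l2, Keap1, Bach1, Slc7a11, Txn1 and Cat. A further gene under this rule is not reported here. Of the 98 listed genes, Nfe2l1, Hspa1b, Dnajb1 and Mt1m matched no probe and Mt3 was too dim. Alternatives were the slide, the replicate number, both, normexp with an offset of 50 (on the median signal), median centring, quantile normalization, other filters and probe rules, subsets of arrays and the authors' table. The fits of each Txnrd1 probe and of levels relative to Hmox1 were added after the data were seen.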

Additional observations from a re-analysis of the deposited data

How the results depend on the processing

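The Hmox1 rise with CCPB over DMSO was called under all 11 alternatives tried, between 0.28 (normexp) and 0.53 (replicate block with slide), and without any 1 array (0.38 to 0.46, limma adjusted p = 0.000792 to 0.00323). Its differences between compounds were less stable, and the cause was not tested. For triclosan against CCPB, Hmox1 was not called with the slide as a block (-0.26), replicate and slide (-0.36, limma adjusted p = 0.152), median centring (-0.23), normexp (-0.13) or dim probes kept (-0.24, adjusted p = 0.0601), which left 0 antioxidant genes called. For diclosan against CCPB it was not called with the slide block (-0.28), normexp (-0.16) or median centring (-0.25), again leaving 0. Slide 2 alone holds 1 diclosan array, assumed to vary like the CCPB arrays, and that fit called 0 of all features (Hmox1 -0.28, adjusted p = 0.223), so it says nothing about stability. Hmox1 between triclosan and diclosan turned to -0.018 with replicate and slide. Leaving out 1 array gave Hmox1 -0.28 to -0.21 for triclosan against CCPB, -0.30 to -0.24 for diclosan against CCPB (called each time) and -0.0025 to 0.043 for triclosan against diclosan.

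Nqo1 between diclosan and CCPB passed, as a second gene beside Hmox1 (2 called), with the replicate block (limma adjusted p = 0.0291) and with probes above background on all 12 arrays (0.048). Over the 7 other tested members, 682 values kept direction and side of the threshold, 58 changed sign or moved without being called, and 2 were those of Nqo1.

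Counts over all genes moved more. With the slide block limma called 46 (triclosan), 704 (CCPB), 1 (triclosan against diclosan), 287 (triclosan against CCPB) and 1007 (diclosan against CCPB). As no pairing by replicate number was seen, the replicate block is given here only: 26 for triclosan and 6 for diclosan. With the slide besides it gave 0 for diclosan, 300 for CCPB, 12 for triclosan against CCPB and 569 for diclosan against CCPB. For triclosan and diclosan against DMSO, in turn, counts were 20 and 9 with normexp, 2 and 1 with median centring, 1 and 1 with dim probes kept, 33 and 10 with probes above background on all arrays, 0 and 0 with only the groups compared, and 1 and 0 on slide 1 alone. Quantile normalization gave 26 for triclosan. Median centring gave 3316 (CCPB), 2387 (triclosan against CCPB) and 1368 (diclosan against CCPB), and dim probes kept 2805, 1398 and 1273. Diclosan against CCPB had 1235 with only these groups and 0 on slide 2 alone. Leaving out 1 array gave 5 to 6 (triclosan), 1 to 3 (diclosan), 3671 to 4000 (CCPB), 0 to 2 (triclosan against diclosan), 2111 to 2897 (triclosan against CCPB) and 1651 to 5444 (diclosan against CCPB), the highest without diclosan replicate 3, the diclosan array on slide 2. Of the calls for triclosan against CCPB 1930 were higher and 2242 lower, and with median centring 852 and 1535. For triclosan against DMSO they were 9 and 4, and 2 and 0 with median centring, and for diclosan against DMSO 2 and 0, and 2 and 1 with quantile normalization.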
